A study of Mus musculus with 59 samples.

Results

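The genes described here are 10 markers and secreted peptides of inhibitory interneurons: Npy, Sst, Vip, Cck, Cort, Nos1, Htr3a, Lhx6, Tac2, and Pnoc. They were chosen by name and not by their values, and all 10 were found among the 54232 mouse genes in the count tables. RNA-seq read pairs had been counted per gene in 59 libraries of 12 mice at 10 weeks of age on a C57BL/6 background. Each library was 1 region (cerebellum, brainstem, hippocampus, striatum, or cortex) of 1 mouse. There were 3 genotypes with 4 mice each. Wild-type (WT) mice were compared with Atxn1 154Q/2Q mice (154Q), in which 1 allele of the endogenous gene carries an expanded CAG repeat, as in spinocerebellar ataxia type 1 (SCA1), and the other allele is the 2Q allele. The third genotype is Atxn1 154Q[V591A;S602D]/2Q (called 154Q-AXH), where the same expanded allele also carries 2 substitutions in the AXH domain of ATXN1, which were made by CRISPR-Cas9 editing of a founder mouse and prevent binding of ATXN1 to the transcriptional repressor Capicua (CIC). Both mutant alleles are expressed from the endogenous locus in every cell that expresses Atxn1, and no mouse carried the 2 substitutions without the expansion. Every group had 4 libraries except 154Q-AXH brainstem, which had 3. Libraries are named by genotype and mouse number, as in WT-221 or, for 154Q-AXH mice, AXH-217. The question was whether these genes differ between genotypes in each region, and whether loss of CIC binding alters that difference.

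Cortical and hippocampal interneurons release GABA and fall into classes that are recognized by the peptides and enzymes they make. Lhx6 is a transcription factor of interneurons born in the medial ganglionic eminence, a class that includes the somatostatin cells (Sst), many of which also make neuropeptide Y (Npy), cortistatin (Cort), or the neuronal nitric oxide synthase (Nos1). Interneurons from the caudal ganglionic eminence instead carry the ionotropic serotonin receptor subunit Htr3a, and among them are cells that make vasoactive intestinal peptide (Vip) or cholecystokinin (Cck). Tac2 encodes the precursor of neurokinin B and Pnoc the precursor of nociceptin. None of these genes belongs to interneurons alone. Cck is also made by excitatory neurons of the forebrain, Nos1 by granule cells and molecular layer interneurons of the cerebellum, and Sst and Pnoc by neurons of the brainstem. In tissue RNA, fewer cells of a type and less RNA per cell cannot be told apart.

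The sequences just upstream of the transcription start are shown for 5 peptide genes that differed between genotypes, because secreted peptides of these classes are known for promoters that answer to neuronal activity through cyclic AMP response elements. They are from RefSeq on GRCm38.p6, 100 bases each, written 5′ to 3′ on the strand of the gene and ending at the base before the start. Capitals mark every match to TGACG, the core of the element, on either strand (CGTCA on the other strand).
Npy (chr6:49822610-49822709, plus strand): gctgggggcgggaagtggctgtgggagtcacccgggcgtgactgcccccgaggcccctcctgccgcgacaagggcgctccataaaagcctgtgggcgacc
Sst (chr16:23890845-23890944, minus strand): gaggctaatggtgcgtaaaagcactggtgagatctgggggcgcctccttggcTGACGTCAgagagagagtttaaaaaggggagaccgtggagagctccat
Vip (chr10:5639118-5639217, plus strand): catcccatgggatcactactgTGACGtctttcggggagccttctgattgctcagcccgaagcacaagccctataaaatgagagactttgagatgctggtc
Cck (chr9:121495695-121495794, minus strand): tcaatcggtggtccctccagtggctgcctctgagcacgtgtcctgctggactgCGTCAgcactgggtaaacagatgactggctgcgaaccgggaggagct
Cort (chr4:149126764-149126863, minus strand): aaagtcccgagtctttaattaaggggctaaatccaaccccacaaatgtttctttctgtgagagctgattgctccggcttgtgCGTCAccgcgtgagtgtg
Upstream windows were found for 8 of the 10 genes. Over the 250 bases before each start, the Sst window held the full palindrome TGACGTCA, in which the core occurs on both strands, 48 to 41 bases before the start, and no other member did; 1.55% of all 32851 windows held it. The core TGACG occurred in the windows of 5 members (Sst, Vip, Cck, Cort, and Nos1), against 17.8% of all windows. The Nos1 window precedes a RefSeq start that lies inside the GENCODE span of the gene and not at its first base, and the RefSeq start of Sst also lies within its GENCODE span. The octamers TGAATGAA, TGAATGGA, TCAATGAA, and TCAATGGA, which CIC recognizes, were searched on both strands and were in no member window and in 3.19% of all windows. A match is a match of letters and was not set against binding.

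In WT mice, 8 of the 10 genes were highest in cortex or striatum and lowest in brainstem or cerebellum. Levels between genes are given as CPM, the count of a gene relative to the size of its library, per kilobase (kb) of exon, so that long and short genes can be set side by side. Sst was the most abundant in the forebrain, at 300.0 ± 60.2 CPM per kb (mean ± SD, n = 4) in striatum, 275 ± 14.0 in cortex, 82.6 ± 3.89 in brainstem, and 2.09 ± 0.631 in cerebellum. In hippocampus it was 208 CPM per kb, with no mouse below 195. In these dissections, striatum and cortex did not differ for Sst (adjusted p = 0.54, the quasi-likelihood F test of edgeR, adjusted by Benjamini-Hochberg over all genes). Most striatal libraries held excitatory markers near the cortical level, as described below, which limits every comparison of these 2 regions. Each further step down the order passed the test, the last by 40.2-fold. Cck followed in cortex at 256 ± 26.1 CPM per kb, and Npy stood at 128 ± 12.4 in striatum and 109 ± 15.3 in cortex. The other members were far lower. In cortex, Vip reached 15.2 ± 0.945 CPM per kb, Cort 13.2 ± 1.92, Lhx6 4.59 ± 0.277, Tac2 4.01 ± 0.261, Pnoc 3.80 ± 0.298, and Htr3a 3.36 ± 0.204.

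Lhx6 drew the sharpest line between forebrain and hindbrain, since it stood at 3.22 ± 0.355 CPM per kb in hippocampus and 0.0677 ± 0.0185 in brainstem, a 47.4-fold step. Its levels in brainstem and cerebellum did not differ (adjusted p = 0.25). Cort behaved alike, with 7.88 ± 1.27 CPM per kb in hippocampus and 0.238 ± 0.111 in cerebellum, a 32.1-fold step. Nos1 ran in the opposite order. It was highest in cerebellum at 12.6 ± 1.68 CPM per kb, lower in hippocampus (7.11 ± 1.37) and brainstem (6.84 ± 0.432), which did not differ from each other (adjusted p = 0.73), and lowest in striatum (3.14 ± 0.321) and cortex (2.87 ± 0.529), which did not differ either (adjusted p = 0.57). Htr3a was highest in hippocampus at 3.54 ± 0.496 CPM per kb. Pnoc varied least outside the cerebellum, from 2.63 ± 0.349 CPM per kb in striatum to 3.80 ± 0.298 in cortex, and no neighboring pair in that order passed the test. Tac2 in brainstem spread widely, from 1.30 to 5.20 CPM per kb over 4 mice. All 10 genes differed between regions in WT, against 91.6% of all genes tested, so that a regional difference by itself is nothing particular to them. Between single regions, the share of all genes called was 10.7% for striatum against cortex, 55.4% and 58.2% for hippocampus against cortex and striatum, 60.7%, 66.1%, and 65.1% for brainstem against hippocampus, striatum, and cortex, and 65.4%, 63.6%, 71.8%, and 70.3% for cerebellum against brainstem, hippocampus, striatum, and cortex. The region order describes the genes in these dissections and was not a reason for choosing them.

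**Figure D1:**
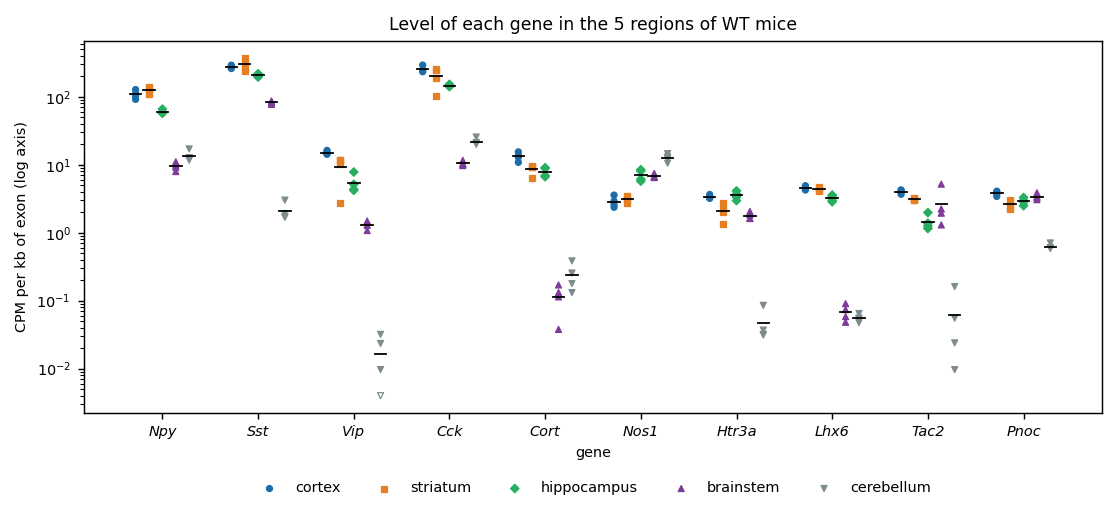
CPM per kb of exon (log axis) of each of the 10 genes in the 4 WT libraries of each region, with a bar at the mean; an open symbol at the bottom is a library with 0 counts. Sst, Cck, and Npy stand highest in the forebrain regions, Lhx6 and Cort fall by 47.4-fold and 32.1-fold to the next region in their order, and Nos1 is highest in cerebellum at 12.6.

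The dissections set limits on some of these values. Counted pairs per library ranged from 64416717 to 112343574 in cerebellum, brainstem, and hippocampus, and from 28058359 to 54719126 in striatum and cortex, so genes at a few CPM had the fewest counts in striatum. Xist and Ddx3y mark female and male tissue. Their sum was at most 161 CPM in WT cerebellum, 108 in hippocampus, and 78.2 in striatum. The highest 154Q and 154Q-AXH sums were 1161 and 1062 CPM in cerebellum, 907 and 964 in hippocampus, and 508 and 584 in striatum. In brainstem the highest sum was 150 CPM in WT and 422 CPM in 154Q. Sex was thus not balanced between genotypes in these regions, and Xist level was tried as a covariate. In 10 of the 12 striatal libraries, the summed level of 4 markers of excitatory forebrain neurons (Slc17a7, Neurod6, Tbr1, and Camk2a) was 3190 to 5053 CPM, close to the 3602 to 6272 CPM in cortex. The other two, WT-220 and AXH-217, stood at 2159 and 1896 CPM and had the highest sums of 5 markers of striatal projection neurons, 3346 and 1887 CPM against 314 to 1325 CPM. The hippocampal library of 154Q mouse 76 held brainstem neuron markers at 312 CPM against at most 1.57 CPM in the other 11. The cortical library of WT-221 had Xist at 470 CPM, unlike the other libraries of that mouse, and the file names of the cortical libraries of 154Q mouse 76 and AXH-207 are crossed against their labels. These 6 libraries are called the libraries in doubt below, and results are given with and without them. The 2 striatal ones are those with the most striatal markers, so leaving them out keeps libraries with excitatory markers near the cortical level. The 154Q brainstem library with a sum of Xist and Ddx3y of 422 CPM is not among the 6.

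Compared with WT, the 154Q mice had lower RNA of interneuron peptides in all 3 forebrain regions. Of 47 gene and region pairs tested, 12 were called at an adjusted p under 0.05, and all 12 were lower. In cortex 6 of 10 genes fell (Npy, Sst, Vip, Cck, Cort, and Pnoc), where 6.71% of all genes were called lower. In hippocampus 3 of 10 fell (Npy, Vip, and Htr3a), against 3.39% of all genes, and in striatum 2 of 10 (Npy and Sst), against 3.77%. In cerebellum 1 of the 7 genes that passed the filter on low counts fell (Cck), against 3.12%, and in brainstem 0 of 10, against 0.4%. In brainstem 3 of 10 had an unadjusted p under 0.05, beside 2367 of all 21754 genes, and 1, Cck, was called with DESeq2. Over the 3 forebrain regions, the log2 fold change was negative in 30 of 30 tests, though that of Nos1 in cortex and hippocampus and that of Tac2 in hippocampus, none of them called, turned positive under some alternatives. Its median over the 10 genes was -0.36 in cortex, -0.59 in hippocampus, and -0.65 in striatum, beside 0.01, 0.02, and -0.01 over all genes tested. The 30 tests come from the same mice in 3 regions, so they are not 30 separate observations. Within a region the members' deviations from group means also correlated. The median Pearson r between members was 0.18 in cortex, 0.29 in hippocampus, and 0.64 in striatum. Without the 6 libraries in doubt the total was 15, all lower. In that setting 5 genes more were called in striatum, and Cck and Pnoc were lost in cortex. The share of all genes called in that setting and with DESeq2 is not given here.

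Between 154Q-AXH mice and WT, 5 of 47 pairs were called, again all lower. They were Npy, Sst, Vip, and Cort in cortex, where 4.76% of all genes were called lower, and Sst in striatum, against 1.08%. In hippocampus 0 of 10 were called, against 0.671% of all genes. There 6 of 10 had an unadjusted p under 0.05, beside 3193 of all 21454 genes, and 9 of 10 had a negative log2 fold change. DESeq2 called 4 there. Cerebellum and brainstem gave 0 calls, against 1.13% and 0.0138% of all genes. Each had 2 members at an unadjusted p under 0.05, beside 3151 of all 20874 genes in cerebellum and 1465 of 21754 in brainstem. The total depended on the libraries used, since it rose to 10 without the 6 in doubt and to 9 without the hippocampal library of 154Q mouse 76 alone. DESeq2 called 12. The 154Q and 154Q-AXH comparisons share the WT libraries, so that their common direction is not 2 separate observations.

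A direct comparison of 154Q-AXH with 154Q mice called 0 of 47 pairs with edgeR and 0 with DESeq2, and 4 had an unadjusted p under 0.05. Such a p was found for 1586 of all 20874 genes in cerebellum, 1163 of 21754 in brainstem, and 2356 of 21454 in hippocampus. It was found for 601 of 18408 in striatum and 1241 of 18610 in cortex, so that 4 of 47 lies near the share of all genes. Among all genes, 0.0335% were called in cerebellum and 0% in each other region. The log2 fold change was negative in 4 of 30 forebrain tests, 1 of 10 in brainstem, and 4 of 7 in cerebellum. Its median over the members was 0.13 in hippocampus, 0.13 in striatum, 0.04 in cortex, 0.18 in brainstem, and -0.05 in cerebellum. Over all genes these medians were -0.008, -0.0005, 0.002, -0.003, and -0.006. The tests share mice, so their signs are not separate observations. A p above the threshold does not show that the genotypes are alike, and the mouse numbers of the 154Q mice all belong to a lower series and those of the 154Q-AXH mice to a higher one, so that genotype and series cannot be told apart in this comparison. In striatum, Sst was 1.29 times as high in 154Q-AXH as in 154Q mice with no overlap of the 4 and 4 libraries (log2 0.36 ± 0.12 SE, adjusted p = 0.94), beside 2.87% of all genes that were higher in every 154Q-AXH library there.

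**Figure D2:**
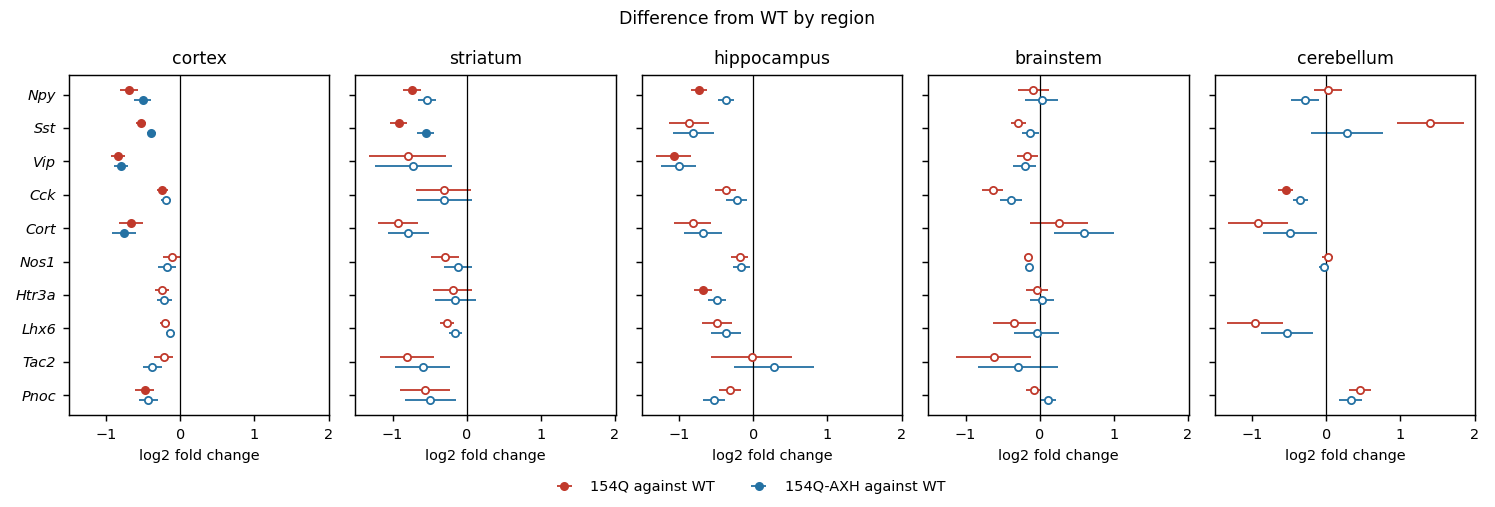
Log2 fold change against WT (x axis) with its standard error for each gene in each region, red for 154Q and blue for 154Q-AXH; filled symbols passed an adjusted p of 0.05 and open ones did not. Nearly all forebrain values lie left of 0, by up to 1.08 for Vip in hippocampus, and Sst in cerebellum lies to the right in 154Q at 1.40.

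Somatostatin, a peptide that inhibits neurons and hormone release, was the member with the smallest p-values together with Vip. In cortex its level was 188, 193, 200, and 210 CPM in the 4 WT mice. It was 124, 133, 136, and 153 CPM in the 154Q mice and 140, 146, 151, and 166 CPM in the 154Q-AXH mice. Every mutant library was below every WT library. The log2 fold change was -0.53 ± 0.07 SE in 154Q (69.1% of WT, adjusted p = 0.00013) and -0.39 ± 0.07 in 154Q-AXH (76.3% of WT, adjusted p = 0.0018), both by edgeR's quasi-likelihood test. In striatum, Sst was 174 to 266 CPM in WT, 108 to 120 CPM in 154Q, and 133 to 163 CPM in 154Q-AXH. Again neither mutant group reached the lowest WT library, with log2 fold changes of -0.92 ± 0.12 (52.9% of WT, adjusted p = 0.00095) and -0.56 ± 0.12 (68.0% of WT, adjusted p = 0.035). The 154Q-AXH call in striatum passed in only 10 of 20 alternatives. It was lost, for example, when only WT and 154Q-AXH were fitted (adjusted p = 0.17) or without AXH-207 (0.14). Leaving out any single 154Q library of striatum also lost it (0.068 to 0.074).

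In hippocampus, Sst was 143 to 161 CPM in WT and 73.7, 81.5, 82.2, and 97.9 CPM in 154Q, which is 54.9% of WT. The groups did not overlap, yet the adjusted p was 0.086. The 3 genotypes share 1 estimate of spread, and 1 of the 154Q-AXH libraries, AXH-218, stood at 32.3 CPM while the other three were at 99.7 to 113 CPM. That library also had the highest summed level of 4 dentate granule cell markers, 688 CPM against 166 to 401 CPM in the other 11; the part of this in the Sst value was not tested. Without it, Sst passed the test in both mutants (log2 -0.87, adjusted p = 0.00019 in 154Q and log2 -0.53, adjusted p = 0.015 in 154Q-AXH). In brainstem, Sst was 58.0 to 64.5 CPM in WT and 42.3, 43.7, 56.6, and 57.5 CPM in 154Q, with log2 -0.29 ± 0.10 and an adjusted p of 0.31.

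Neuropeptide Y, a peptide co-transmitter of inhibitory neurons, fell in the same 3 regions in 154Q mice. In cortex, Npy was 52.0, 57.9, 63.0, and 72.2 CPM in WT, 32.5, 33.5, 42.5, and 43.2 CPM in 154Q, and 37.9, 39.3, 44.1, and 50.6 CPM in 154Q-AXH. In hippocampus the WT range was 32.9 to 38.2 CPM, the 154Q range 17.0 to 25.3 CPM, and the 154Q-AXH range 24.7 to 29.0 CPM. In striatum these ranges were 63.1 to 79.7, 35.8 to 47.1, and 39.5 to 60.8 CPM. In no forebrain region did a mutant library reach the lowest WT library. The log2 fold change in 154Q mice was -0.69 ± 0.12 SE in cortex, -0.73 ± 0.11 in hippocampus, and -0.74 ± 0.12 in striatum (adjusted p = 0.0014, 0.0031, and 0.0051, edgeR). For 154Q-AXH the levels were 70.3%, 77.1%, and 68.8% of WT, of which cortex passed the test (adjusted p = 0.015) and hippocampus (0.11) and striatum (0.058) did not. The cortical call in 154Q-AXH was lost without the 6 libraries in doubt (adjusted p = 0.13), without AXH-207 (0.056), without AXH-209 (0.053), or with the series of mouse numbers as a covariate (0.094). Hippocampus passed without the library of 154Q mouse 76 (0.034).

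Cortistatin, a peptide related to somatostatin that binds the same receptors, is transcribed at a small fraction of the Sst level. In cortex, Cort was 7.33 to 10.5 CPM in WT, 4.47 to 6.96 CPM in 154Q, and 4.23 to 6.42 CPM in 154Q-AXH, with no overlap. The log2 fold changes were -0.66 ± 0.16 (adjusted p = 0.014) and -0.76 ± 0.16 (adjusted p = 0.0095) by edgeR. Both calls were lost with the series of mouse numbers as a covariate (adjusted p = 0.081 and 0.059). In striatum the WT libraries were at 4.30, 6.22, 6.31, and 6.58 CPM and the 154Q libraries at 2.81 to 3.29 CPM, or 52.7% of WT, with an adjusted p of 0.065. Without WT-220 and AXH-217 the log2 fold change there was -1.04 (adjusted p = 0.0003) in 154Q and -0.64 (adjusted p = 0.021) in 154Q-AXH. In hippocampus, Cort was 4.58 to 6.25 CPM in WT and 1.92 to 3.70 CPM in 154Q (adjusted p = 0.078, or 0.026 without AXH-218). In cerebellum and brainstem it never rose above 0.277 CPM, that is 24 counts, and those levels give no ground for a direction.

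The lineage factor Lhx6 and the enzyme Nos1, which mark overlapping populations, gave no call in any region. In cortex, Lhx6 was 20.3 to 23.6 CPM in WT and 17.3 to 20.2 CPM in 154Q, a log2 fold change of -0.21 ± 0.06 with an adjusted p of 0.052. The 2 groups did not overlap, and 5 of the alternative settings, DESeq2 among them (adjusted p = 0.031), put Lhx6 past the threshold. In striatum it was 19.5 to 22.7 CPM in WT and 15.6 to 18.6 CPM in 154Q (log2 -0.27 ± 0.09, adjusted p = 0.10), and in hippocampus 14.1 to 17.5 and 6.23 to 13.4 CPM (log2 -0.50 ± 0.20, adjusted p = 0.17). The lowest hippocampal value was that of mouse 76. The exons of Lhx6 overlap those of Gm27953, and counting ignored strand, so pairs from the shared part could not be assigned to 1 of them. Such ambiguous pairs belong to the summary lines that were left out and are not in the Lhx6 count.

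Nos1 makes the gas nitric oxide and is abundant outside the Sst class too. In cortex it was 26.2 to 40.0 CPM in WT, 23.9 to 36.5 CPM in 154Q, and 26.3 to 30.2 CPM in 154Q-AXH, and these ranges overlap. Its log2 fold change in 154Q was -0.11 ± 0.13 in cortex, -0.30 ± 0.19 in striatum, -0.19 ± 0.12 in hippocampus, -0.16 ± 0.05 in brainstem, and 0.02 ± 0.07 in cerebellum, with adjusted p-values from 0.23 to 0.94. In brainstem the 154Q libraries (65.1 to 73.8 CPM) were all below the WT libraries (74.1 to 84.8 CPM). The exons of Nos1 overlap those of Gm26995 in the annotation.

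**Figure D3:**
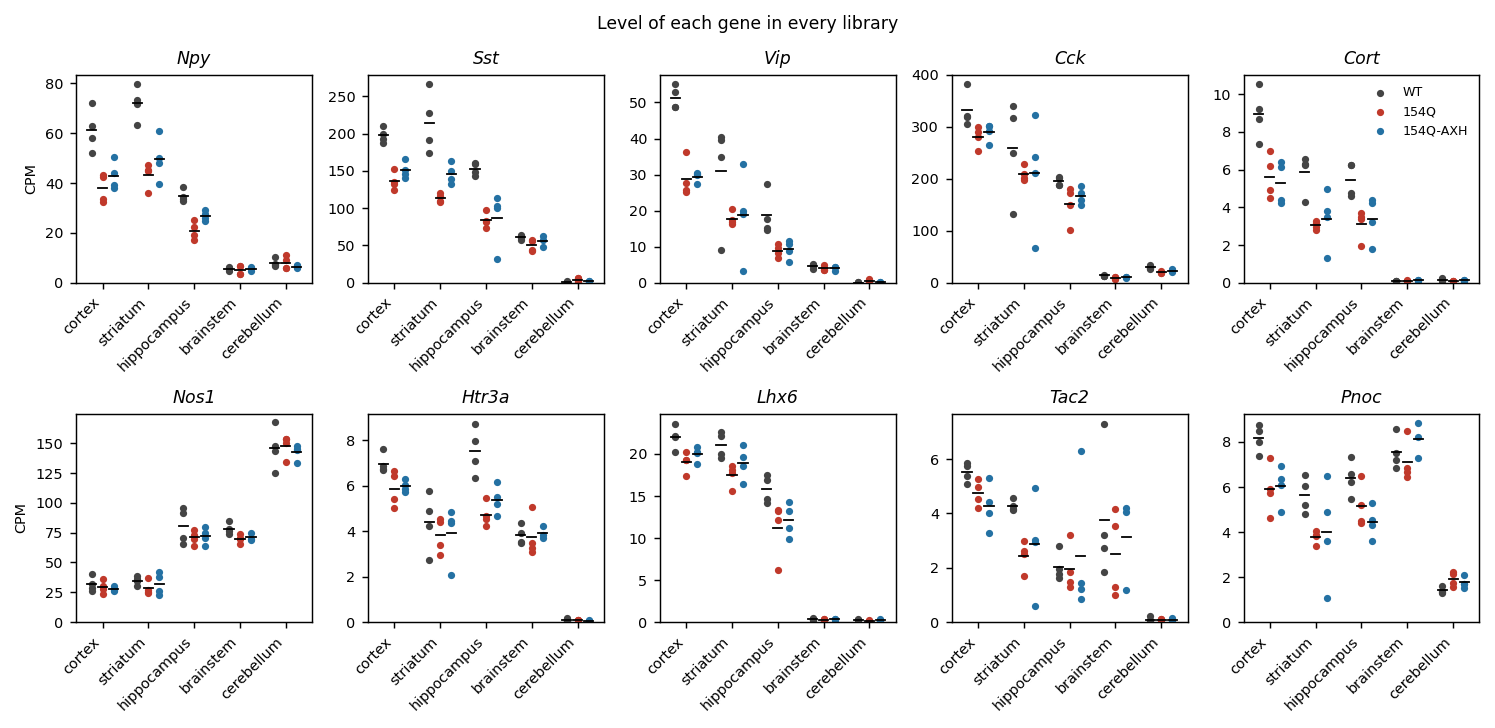
CPM of each gene (y axis, from 0) in every library by region and genotype, with a bar at the group mean. In cortex the mutant libraries of Sst, Npy, Vip, and Cort all lie below the WT libraries, while those of Nos1 overlap with them.

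Among the genes of the caudal lineage, Vip had the largest relative difference in the forebrain. Its peptide relaxes vessels and, in cortex, marks interneurons that mainly contact other interneurons. Cortical Vip was 48.8, 48.9, 52.9, and 55.0 CPM in WT, 25.3, 25.8, 27.6, and 36.4 CPM in 154Q, and 27.3, 29.9, 30.1, and 30.5 CPM in 154Q-AXH. All 8 mutant libraries lay below the WT libraries. The 154Q mice had 56.1% of WT (log2 -0.83 ± 0.09, adjusted p = 6.3e-05) and the 154Q-AXH mice 57.3% (log2 -0.80 ± 0.09, adjusted p = 0.00011; edgeR). In hippocampus, Vip was 14.5, 15.2, 17.8, and 27.3 CPM in WT, 6.91 to 10.6 CPM in 154Q, and 5.76 to 11.6 CPM in 154Q-AXH. The hippocampal log2 fold change was -1.08 ± 0.23 in 154Q (adjusted p = 0.020) and -1.01 ± 0.24 in 154Q-AXH (adjusted p = 0.058). The 154Q call was lost without 154Q mouse 69 (0.053) or with the level of Xist as a covariate (0.055). The 154Q-AXH difference passed without mouse 76 (0.029).

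Striatal Vip spread widely within 2 groups. It was 35.0, 40.5, and 39.6 CPM in WT-70, WT-77, and WT-221 but 8.99 CPM in WT-220, and 19.8, 19.0, and 33.0 CPM in AXH-207, AXH-209, and AXH-218 but 3.33 CPM in AXH-217. Those low libraries are the ones with the lowest excitatory forebrain markers. With all libraries, striatal Vip was not called (log2 -0.80 ± 0.52 in 154Q, adjusted p = 0.37). With those 2 left out, the log2 fold change was -1.10 (adjusted p = 0.00073) in 154Q and -0.67 (adjusted p = 0.041) in 154Q-AXH. Cck, a peptide of basket cells and of many excitatory neurons, was low in the same libraries. It was 133 CPM in WT-220 and 66.5 CPM in AXH-217 but 198 to 339 CPM in the other 10 striatal libraries. Over 12 striatal libraries, the deviations of Vip and Cck from their group means had a Pearson r of 0.98 and those of Npy and Lhx6 an r of 0.94, whereas Sst and Vip had an r of -0.11; the points share libraries and their dissection. The 2 libraries were not low for Sst (266 and 133 CPM) or Npy (71.7 and 39.5 CPM) to the same degree. Without these 2 libraries, 7 of 10 members were called lower in 154Q striatum: Npy, Sst, Vip, Cck, Cort, Tac2, and Pnoc. The 2 left out had the highest striatal projection neuron markers, and the 10 kept held excitatory markers near the cortical level. These calls therefore describe dissections with cortex-like markers, and the share of all genes called in this setting is not given here. The level of excitatory markers moved with genotype as well. In striatum it was 4607 to 5053 CPM in WT and 3190 to 3619 CPM in 154Q once WT-220 is set aside, and the sum of striatal projection neuron markers was 996 to 1325 CPM in these WT libraries and 347 to 653 CPM in 154Q. What part the makeup of the dissections has in the striatal results was not tested.

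**Figure D4:**
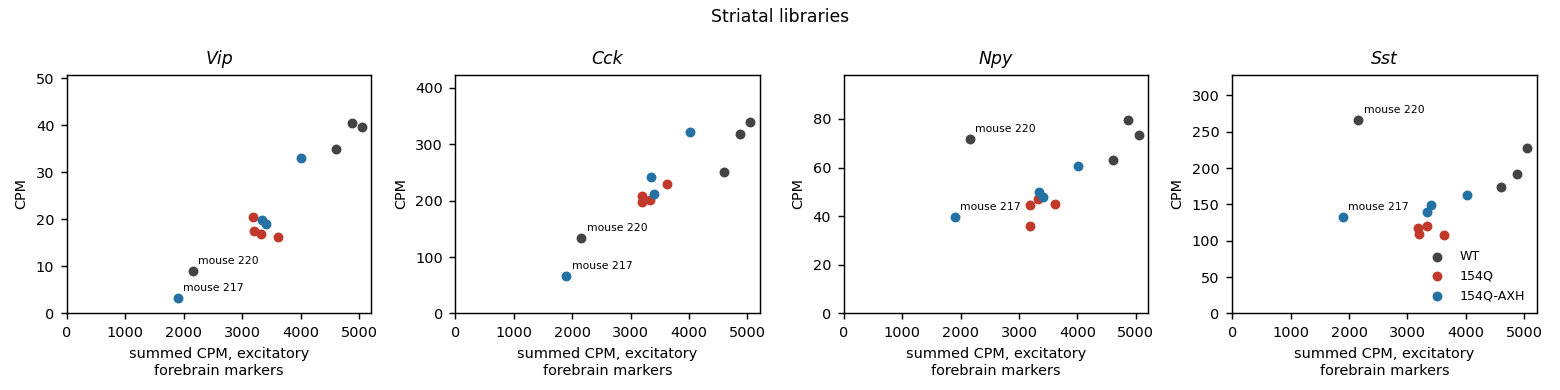
CPM of Vip, Cck, Npy, and Sst (y axes, from 0) in the 12 striatal libraries against the summed CPM of 4 excitatory forebrain markers (x axis), colored by genotype. WT-220 and AXH-217 lie at 2159 and 1896 CPM on the x axis and hold the lowest Vip and Cck, but WT-220 holds the highest Sst, 266 CPM.

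Cck was the one member called in cerebellum. Cerebellar Cck was 26.8, 28.2, 28.9, and 35.1 CPM in WT, 19.0 to 22.9 CPM in 154Q, and 20.2, 22.3, 23.9, and 27.1 CPM in 154Q-AXH. The 154Q libraries were all lower (68.3% of WT, log2 -0.55 ± 0.10, adjusted p = 0.0035, edgeR), and the 154Q-AXH libraries overlapped with WT (78.5% of WT, adjusted p = 0.079). Of 4 Purkinje cell markers, 3 also fell in 154Q cerebellum, their sum being 4246 to 4505 CPM in WT and 3295 to 3491 CPM in 154Q, and their part in the Cck value was not tested. In brainstem, Cck was 13.1 to 15.4 CPM in WT and 6.64, 7.57, 10.7, and 11.1 CPM in 154Q, with no overlap (log2 -0.64 ± 0.14, adjusted p = 0.075); without 154Q mouse 75 it passed (0.035). In cortex the difference was smaller. WT libraries were at 306 to 382 CPM and 154Q libraries at 253 to 300 CPM (84.6% of WT, adjusted p = 0.040), and this call was lost without the 6 libraries in doubt (0.11), with the series of mouse numbers as a covariate (0.078), and without any one of 8 single cortical libraries, 3 of them WT, 3 154Q, and 2 154Q-AXH (0.052 to 0.11).

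Htr3a, a subunit of the serotonin-gated channel and the receptor among the 10 genes, was called in hippocampus. It was 6.34, 7.06, 7.95, and 8.72 CPM in WT, 4.22, 4.52, 4.65, and 5.43 CPM in 154Q, and 4.65 to 6.17 CPM in 154Q-AXH. No mutant library reached the WT range. The log2 fold change was -0.68 ± 0.12 in 154Q (62.6% of WT, adjusted p = 0.0079) and -0.48 ± 0.12 in 154Q-AXH (adjusted p = 0.072, or 0.048 without 154Q mouse 76; edgeR). In cortex, Htr3a was 6.67 to 7.60 CPM in WT and 5.02 to 6.65 CPM in 154Q, which did not pass (log2 -0.25 ± 0.10, adjusted p = 0.12). Striatum and brainstem gave -0.19 ± 0.27 and -0.04 ± 0.15. In cerebellum, Htr3a had at most 12 counts and was not tested.

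Pnoc and Tac2, the remaining peptide precursors, were close to the limit of the tests. Cortical Pnoc was 7.36 to 8.77 CPM in WT, 4.63 to 7.30 CPM in 154Q, and 4.89 to 6.92 CPM in 154Q-AXH. Both mutant groups lay below WT, at 71.6% (adjusted p = 0.025) and 74.0% (adjusted p = 0.054) of its level, and the 154Q call was lost without WT-220, WT-221, or 154Q mouse 71 (0.066 to 0.075), without the 6 libraries in doubt (0.11), and with the series of mouse numbers as a covariate (0.21). Tac2 in cortex was 5.06 to 5.85 CPM in WT and 3.26 to 5.31 CPM in 154Q-AXH (log2 -0.38 ± 0.13, adjusted p = 0.10, or 0.037 without AXH-207). Brainstem Tac2 reached 7.30 CPM in WT-77 and was 1.01 to 4.18 CPM in all the others, and no order of genotypes can be read from it.

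In cortex 8 of 10 genes had all 154Q libraries below all WT libraries, beside 8.01% of all genes. The count was 7 of 10 in hippocampus beside 7.26%, 6 of 10 in striatum beside 8.94%, 3 of 10 in brainstem beside 3.22%, and 2 of 7 in cerebellum beside 5.38%. For 154Q-AXH it was 7 of 10 in cortex (8.15% of all genes), 7 of 10 in hippocampus (5.79%), 2 of 10 in striatum (3.86%), 1 of 10 in brainstem (4.3%), and 0 of 7 in cerebellum (4.14%). Of the 2 members lower in every 154Q cerebellum, Lhx6 had only 20 to 24 counts in WT and 7 to 19 in 154Q. Markers of other cells moved as well in cortex. All 4 astrocyte markers fell in 154Q, their sum being 562 to 658 CPM in WT and 424 to 461 CPM in 154Q. Of the 4 excitatory neuron markers, 2 fell in 154Q, with sums of 4862 to 6272 CPM in WT, 3602 to 4398 CPM in 154Q, and 3935 to 4217 CPM in 154Q-AXH. In hippocampus 2 of 4 excitatory markers and 2 of 4 dentate granule cell markers fell in 154Q, with excitatory sums of 4961 to 6195 CPM in WT and 2185.0 to 4129 CPM in 154Q. None of the 4 microglia markers was called in any region. Markers of the hypothalamus, a rich source of peptides, summed to at most 1.69 CPM in every library. The part of these shifts in the members' values was not tested.

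Cerebellum was where the members went different ways. Sst was 1.26, 1.29, 1.42, and 2.29 CPM in WT and 1.35, 1.76, 6.14, and 6.80 CPM in 154Q. The high values belonged to 154Q mice 75 and 71. These libraries were also the highest of 12 for Vip (1.10 and 0.837 CPM, against at most 0.205 CPM in the other 10) and for Pnoc (2.13 and 2.23 CPM), and they held 9.29 and 11.1 CPM of Npy against 6.00 and 5.99 CPM in mice 69 and 76. Their markers of granule cells, Purkinje cells, brainstem neurons, and excitatory forebrain neurons lay within or next to the range of the other 154Q cerebella, with brainstem sums of 47.7 and 49.6 CPM against 38.7 and 50.5 CPM. Such sums cannot show a small share of other tissue, since all cerebellar libraries held 512 to 613 CPM of the excitatory markers. The part of the dissections in these values was not tested. The cerebellar Sst difference was not called (log2 1.40 ± 0.45, adjusted p = 0.090) but passed without 154Q mouse 69 (0.020) or 76 (0.041), nor was that of Pnoc called (log2 0.46 ± 0.15, adjusted p = 0.11). With the libraries of mice 71 and 75 left out, the log2 fold change was 0.03 (adjusted p = 0.98) for Sst and 0.23 (adjusted p = 0.59) for Pnoc. In brainstem the same 2 mice were higher than the other 154Q mice for Npy (6.85 and 6.72 against 3.68 and 3.55 CPM), Sst (56.6 and 57.5 against 42.3 and 43.7 CPM), and Tac2 (4.16 and 3.54 against 1.28 and 1.01 CPM).

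**Figure D5:**
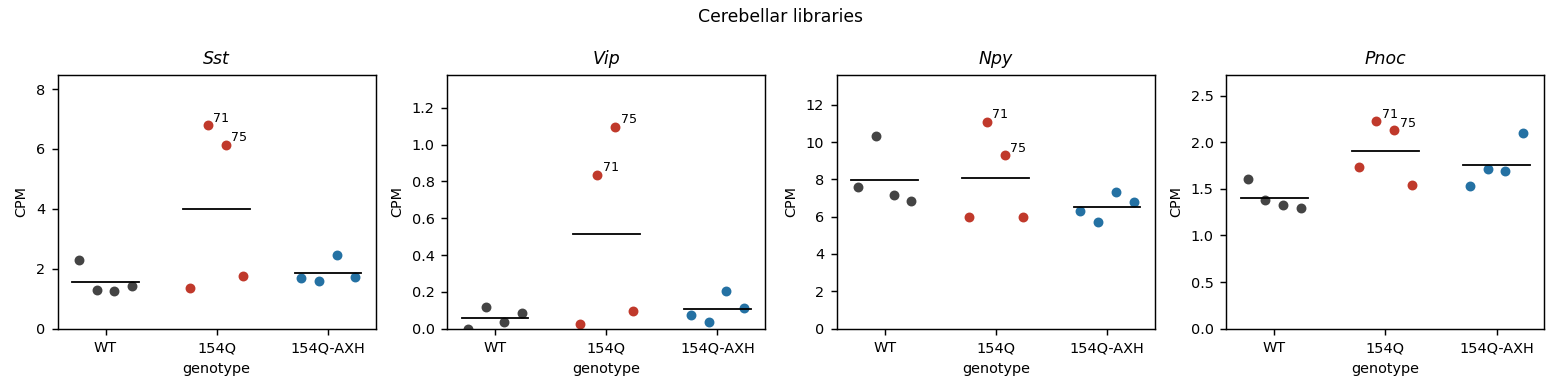
CPM of Sst, Vip, Npy, and Pnoc (y axes, from 0) in the 12 cerebellar libraries by genotype, with a bar at the mean and mice 71 and 75 labeled. The 2 labeled 154Q libraries hold 6.80 and 6.14 CPM of Sst, above the other 10.

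Whether the 154Q difference varied between regions was tested with an interaction term over all WT and 154Q libraries. Of the 10 genes, 3 passed: Sst (adjusted p = 0.00066), Pnoc (0.0094), and Vip (0.038; edgeR), beside 5.71% of all genes. The Vip call was lost with the mouse as a block (0.053). When the cerebellar libraries of mice 71 and 75 were left out, Sst remained (0.021) and Pnoc (0.12) and Vip (0.49) did not. Without any cerebellar library, Sst also passed (0.038), its log2 fold change being -0.29 in brainstem, -0.53 in cortex, -0.87 in hippocampus, and -0.92 in striatum. For 154Q-AXH, 0 of 10 passed, beside 1.33% of all genes, and Pnoc passed without the 6 libraries in doubt (0.025). An unadjusted p under 0.05 was found for 3 of the 10, and the share of all genes at that p is not given here.

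Receptors of these peptides changed in both directions. The 16 genes are peptide receptors and Htr3b, the partner subunit of Htr3a. Of 66 tests over 5 regions, 3 were higher and 8 lower in 154Q. Lower were 1 of 12 in cerebellum, 0 of 15 in brainstem, and 1 of 13 in hippocampus. In striatum 1 of 14 and in cortex 5 of 12 were lower. The share of all genes called lower in these 5 regions was 3.12%, 0.4%, 3.39%, 3.77%, and 6.71%. Among all genes, the share called higher in cerebellum, brainstem, hippocampus, striatum, and cortex was 2.1%, 0.138%, 2.52%, 1.92%, and 4.4% in 154Q and 1.08%, 0%, 0.629%, 0.277%, and 2.39% in 154Q-AXH. Somatostatin receptors 1 and 2 went opposite ways in cortex: Sstr1 rose from 22.4 ± 2.31 CPM (SD, n = 4) in WT to 31.7 ± 4.63 CPM in 154Q (log2 0.50, adjusted p = 0.0083), and Sstr2 fell from 26.4 ± 3.35 to 14.9 ± 1.62 CPM (log2 -0.83, adjusted p = 5.2e-05). In 154Q-AXH cortex, Sstr1 stood at 33.9 ± 4.27 CPM and Sstr2 at 15.9 ± 0.126 CPM, and both passed too. Sstr1 also rose in hippocampus, from 8.30 ± 1.02 CPM in WT to 16.5 ± 2.71 CPM in 154Q and 17.7 ± 3.10 CPM in 154Q-AXH (adjusted p = 0.0029 and 0.0041). The gastrin and cholecystokinin receptor Cckbr fell in cortex from 99.3 ± 3.55 to 66.1 ± 9.27 CPM (adjusted p = 0.00047), and the neuropeptide Y receptor Npy2r fell in hippocampus from 65.1 ± 10.1 to 40.1 ± 7.89 CPM in 154Q (adjusted p = 0.022) while it was 68.4 ± 11.2 CPM in 154Q-AXH. In cerebellum the VIP receptor Vipr2 fell in 154Q (log2 -0.83, adjusted p = 0.0075) and the nociceptin receptor Oprl1 rose (log2 0.49, adjusted p = 0.023).

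Partners of Nos1 in nitric oxide signaling are proteins that bind the enzyme and genes of the cyclic GMP pathway. They fell in 8 of 40 tests in 154Q and rose in 0. Of 8 in each region, 2 fell in cerebellum, 0 in brainstem, 2 in hippocampus, 1 in striatum, and 3 in cortex. The shares of all genes called lower are those given with the receptors, also for the lists below. The adaptor Nos1ap, which links the enzyme to other proteins, went from 99.1 ± 8.69 CPM in WT cortex to 70.7 ± 5.08 CPM in 154Q and 70.2 ± 8.98 CPM in 154Q-AXH (adjusted p = 0.0019 and 0.0023). The scaffold Dlg4, better known as PSD-95, fell in striatum from 669 ± 16.6 to 506 ± 11.8 CPM (adjusted p = 0.0017). In cerebellum, where Nos1 itself was not called, the cyclic GMP phosphodiesterase Pde5a fell from 127 ± 8.38 to 92.1 ± 9.20 CPM in 154Q (adjusted p = 0.00058), and so did the cyclic GMP-dependent kinase Prkg1 (log2 -0.31, adjusted p = 0.023).

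Other genes of interneuron classes fell in 15 of 136 tests in 154Q and rose in 2. Lower were 1 of 22 in cerebellum, 1 of 25 in brainstem, and 3 of 30 in hippocampus. In striatum 1 of 30 and in cortex 9 of 29 were lower. Gad1, which makes GABA, fell in cortex from 380 ± 18.2 CPM in WT to 264 ± 14.7 CPM in 154Q and 283 ± 6.99 CPM in 154Q-AXH (log2 -0.53 and -0.43, adjusted p = 1.1e-05 and 8.8e-05). In hippocampus it fell from 375 ± 4.85 to 280 ± 13.5 and 293 ± 16.8 CPM (adjusted p = 0.0014 and 0.009). The other synthetic enzyme, Gad2, and the vesicular GABA transporter Slc32a1, named here after their values were seen, were not called in any region, with log2 fold changes of -0.15 ± 0.06 and 0.00 ± 0.05 in 154Q cortex. Lamp5, which is shared by neurogliaform interneurons and some excitatory neurons, had the largest fold among those called in cortex, at 274 ± 31.9 CPM in WT, 116 ± 28.1 CPM in 154Q, and 121 ± 22.0 CPM in 154Q-AXH. Crhbp, found in many somatostatin cells, fell in cortex as well (log2 -0.51, adjusted p = 0.00019 in 154Q). In cerebellum the 2 genes that rose were Calb2 (425 ± 14.7 to 607 ± 36.1 CPM, adjusted p = 1.5e-05), a calcium-binding protein of granule cells there, and Satb1 (adjusted p = 0.0094). Calb2 also rose in 154Q-AXH cerebellum, to 594 ± 22.6 CPM.

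Of the other neuropeptide genes, 9 of 64 tests were lower and 2 higher in 154Q. Lower were 0 of 11 in cerebellum, 3 of 16 in brainstem, and 1 of 13 in hippocampus. In striatum 1 of 12 and in cortex 4 of 12 were lower. Crh, the stress peptide corticotropin-releasing hormone, differed most among those called in brainstem, where the 10 interneuron genes gave no call. It was 17.1 ± 1.83 CPM in WT, 5.01 ± 0.781 CPM in 154Q, and 6.46 ± 0.143 CPM in 154Q-AXH (log2 -1.77 and -1.41, adjusted p = 7.2e-06 and 0.00029; n = 4, 4, and 3; edgeR). The prodynorphin gene Pdyn fell in cortex from 27.8 ± 1.99 to 13.7 ± 2.60 CPM in 154Q and 15.1 ± 3.08 CPM in 154Q-AXH (adjusted p = 0.00026 and 0.0012). Neurotensin (Nts) rose in hippocampus, from 5.57 ± 0.616 to 14.0 ± 3.22 and 11.6 ± 2.59 CPM (adjusted p = 0.0022 and 0.018). Penk, a peptide of striatal projection neurons, fell in 154Q striatum by 2.36 on the log2 scale (adjusted p = 0.038), and by 1.55 without WT-220 and AXH-217 (0.0053).

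Genes that process peptide precursors or load them into dense core vesicles also split, with 8 of 75 tests lower and 5 higher in 154Q. Of 15 in each region, 0 were lower in cerebellum, 0 in brainstem, 2 in hippocampus, 1 in striatum, and 5 in cortex. Vgf, a granin-like secreted protein, fell in cortex from 417 ± 30.8 to 326 ± 24.2 CPM (adjusted p = 0.0026) and in striatum from 398 ± 15.4 to 271 ± 9.10 CPM (adjusted p = 0.00025). The granin Chgb fell in hippocampus from 844 ± 26.4 to 513 ± 43.6 CPM in 154Q and 591 ± 57.0 CPM in 154Q-AXH (adjusted p = 0.00052 and 0.009). Pcsk1n, an inhibitor of the convertase that cuts these precursors, rose in cortex from 805 ± 38.8 to 976 ± 25.8 CPM (adjusted p = 0.0018). In the comparison of 154Q-AXH with 154Q, 0 tests were called in any of these 5 lists.

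Over the 15 region and genotype groups, the genes whose mean log2 CPM followed a member most closely, among 17539 others, were Actg1 and Tox3 for Sst (Pearson r = 0.9923 and 0.9921), Rilpl2 and Gatb for Npy (0.9927 and 0.9918), and Unc13a and Wdr13 for Cck (0.993 and 0.9916). These are descriptions over 15 points that the regions dominate. Vip did not pass the filter in cerebellum and was not compared.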

How the data were processed

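Reads from 59 libraries were trimmed by the authors with Trimmomatic 0.36 and aligned with STAR 2.7.2d to the GRCm38.p6 build, annotated by GENCODE M18; the submitters' processing notes also name DESeq2 1.28.1. The deposited values are whole counts of read pairs per gene, without normalization. The column without regard to strand was used, since the first strand held 48.9% to 50.1% of stranded counts. The 4 summary lines and 1 human transgene line in each file name no mouse gene, held 18.8% to 24.7% of pairs, and were left out. Symbols, gene spans, and exon lengths came from GENCODE M21 and matched 54079 of 54232 genes. The labels gave each library's region, genotype, and mouse.

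Each region was fitted with its 3 genotypes in edgeR 4.0.16 (R 4.3.3; filterByExpr, TMM, quasi-likelihood test, Benjamini-Hochberg over all genes; called at an adjusted p under 0.05). The standard error is the log2 fold change over the square root of F. CPM use TMM-scaled library sizes; log2 CPM for correlations used a prior count of 2. A region by genotype interaction and the regions of WT mice were fitted over all regions, the latter with CPM on 1 scale; BH adjustment was made within each contrast. Libraries of 1 mouse are paired by the labels; their deviations from group means correlated with a median r of 0.063 over 116 pairs, against -0.0099 over 348 pairs of different mice, and the mouse was tried as a block. Within a region each library is 1 mouse, so p-values there measure the spread between mice and their dissections. In the interaction and WT region tests, libraries of 1 mouse were treated as independent unless the mouse was a block. The closest pair of libraries of a group differed by 6.18 times the chi-square of counting noise per gene, so each was counted once. Counting error is part of the spread between mice and can make up much of it for the members with low counts.

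The genes, lists, and tests were chosen with earlier results of these data known. All 10 genes enter the counts in every region where they could be tested, but values are not printed for each gene in each region. Of the other lists, up to 3 called genes with the smallest adjusted p per comparison could be named. A marker of excitatory forebrain neurons was left out of its list after the data were seen and is not reported here. Alternatives were DESeq2 1.42.0, edgeR with the DESeq2 size factors or without the filter on low counts, only the 2 genotypes compared, mouse number series or Xist level as a covariate, the cortical pair exchanged or removed, and leaving out each library. Leaving out the libraries that stand apart together, 2 cerebellar libraries, or the cerebellum was chosen after seeing the data. Scripts were tested on simulated counts. The authors' own fold changes were not used.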

Additional observations from a re-analysis of the deposited data

Results flagged for a closer look

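Groups of 4 libraries were searched for 1 value far from the rest by Dixon's ratio of the gap to the range; 9 of 140 member groups passed its 95% critical value, which chance alone passes in about 1 in 20 groups. In hippocampus, Sst of AXH-218 was 32.3 CPM (99.7 to 113 CPM in the other three), Cort of 154Q mouse 76 was 1.92 CPM (3.40 to 3.70 CPM in the others), and Tac2 of AXH-209 was 6.30 CPM (0.836 to 1.45 CPM in the others). In striatum, Cort of WT-220 was 4.30 CPM (6.22 to 6.58 CPM in the others). In cerebellum, Sst was 2.29 CPM in WT-70 and 2.45 CPM in AXH-217, Cort was 0.0508 CPM in 154Q mouse 69 (4 counts), and Htr3a was 0.187 CPM in WT-70 (12 counts) and 0.0116 CPM in 154Q mouse 76 (1 count).

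The change in 154Q mice differed between regions by the interaction test for Sst (adjusted p = 0.00066), Pnoc (0.0094), and Vip (0.038), all from edgeR over all WT and 154Q libraries.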

How the results depend on the processing

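No called member result changed sign under any alternative; results that were not called did, such as Npy in 154Q cerebellum (log2 -0.41 to 0.17). The count of member and region pairs called in 154Q against WT was 12, 10 to 14 without 1 library, 16 with DESeq2, and 9 once the series of mouse numbers was a covariate. In 154Q-AXH against WT it was 5, 4 to 9 without 1 library (9 without hippocampal 154Q mouse 76), 12 with DESeq2, 3 once that series was a covariate, and 10 without the 6 forebrain libraries in doubt. In 154Q-AXH against 154Q it was 0 throughout. The share of all genes called in each setting is not given here, and the cause of these shifts was not tested. Of 10 members, 3 had a 154Q change that differed between regions, 1 to 4 without 1 mouse (1 without WT-77, WT-221, or 154Q mouse 71 or 75), 2 with the mouse as a replicate block, and 1 without the cerebellum or its libraries of 154Q mice 71 and 75. For 154Q-AXH the count was 0, also with the block, and 1 without the libraries in doubt. All 10 differed between regions in WT, with and without the block, which changed no other call. Among single genes, 44 of 2874 planned results lost their call and 48 gained one. Only a result called in the main fit can lose a call. There 12, 5, and 0 of 47 pairs were called, so 44 of 2874 is not the share of calls lost. Cck and Pnoc in 154Q cortex, Npy in 154Q-AXH cortex, and Sst in 154Q-AXH striatum lost theirs most often. Cck passed in 9 of 21 alternatives, Pnoc and Npy in 16 of 21 each, and Sst in 10 of 20. Genes under 1 CPM in hindbrain had too few counts for a direction. Cort and Lhx6 are such genes in cerebellum and brainstem, but the counts of tests and of non-overlapping members above include them.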
